A study of Homo sapiens with 8 samples.

Results

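The BCL2 family genes BCL2, BCL2L1, MCL1, BCL2A1, BAK1, BCL2L11, BID, BAD, BIK and BMF were followed by RNA sequencing in clones of RPMI-8402, an established human line of T-cell acute lymphoblastic leukaemia. These 10 genes were chosen by symbol for their known roles, and all 10 were found among the 61228 gene symbols of the deposited table. The series holds 4 NKX2-1 knockout clones, named C12, C15, S04 and S36, and 4 wild-type clones, named WT10, WT13, WT28 and WT30. All came from the same line and were grown untreated in the same serum-containing medium. Each clone gave 1 library. The kind of edit in NKX2-1, a homeobox transcription factor of lung and thyroid development, and the meaning of the letters C and S are not stated in the labels.

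Proteins of this family decide whether the outer membrane of the mitochondrion stays intact. BCL2, BCL-XL (from BCL2L1), MCL1 and BFL1 (from BCL2A1) keep cells alive by binding their killer relatives, BAK1 is an effector that forms pores in the membrane, and the BH3-only proteins BIM (from BCL2L11), BID, BAD, BIK and BMF carry death signals to both. In T-cell leukaemia, immature cases are known to lean on BCL2 and more mature ones on BCL-XL.

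BCL2L1 and BAD were the members with an edgeR adjusted p under 0.05 in a fit of the S-named clones against wild type. In that fit 14.5% of all genes passed. MCL1 and BID in the S-named clones also lay outside the wild-type range but did not pass. The stretches before the BCL2L1 and BAD starts are shown because of those calls. Both are from RefSeq on GRCh38.p14, minus strand, 250 bases that end just before an annotated start, chr20:31723964-31724213 for BCL2L1 and chr11:64284705-64284954 for BAD. Capitals mark ACCACA, the reverse complement of TGTGGT, a core sequence that RUNX factors bind.
BCL2L1: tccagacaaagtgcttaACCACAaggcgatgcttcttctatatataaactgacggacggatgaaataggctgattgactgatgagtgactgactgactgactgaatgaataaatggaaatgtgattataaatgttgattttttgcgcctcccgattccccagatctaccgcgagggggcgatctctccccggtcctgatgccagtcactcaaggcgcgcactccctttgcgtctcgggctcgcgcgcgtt
BAD: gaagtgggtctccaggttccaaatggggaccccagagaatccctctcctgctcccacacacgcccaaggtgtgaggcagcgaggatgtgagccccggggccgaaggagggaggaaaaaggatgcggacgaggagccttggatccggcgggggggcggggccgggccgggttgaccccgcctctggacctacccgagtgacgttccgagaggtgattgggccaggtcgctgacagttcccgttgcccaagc

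The RUNX letters start 233 bases before this BCL2L1 start, and the window of the other annotated BCL2L1 start, chr20:31722869-31723118, does not hold them. The series title pairs NKX2-1 with RUNX1, so TGTGGT and CAAGTG, a core bound by NKX2 factors, were searched on both strands. Windows were found for 8 members, 15 windows in all, and 1 window held TGTGGT while 0 held CAAGTG. Over all 35116 windows of this length the shares were 11% and 9.5%. A match is a description of the letters and not a bound site.

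Library totals were 2730285 counts in C15 and 12344549 to 25423215 in the other knockout clones, against 18453947 to 22916424 in wild-type clones. The share of mitochondrial transcripts was 14.8% to 21.2% in knockout clones, with C15 highest, and 12.9% to 15.1% in wild-type clones. NKX2-1 itself was at 72.0 CPM (C12), 11.3 (C15), 83.6 (S04) and 33.4 (S36), against 53.6 to 63.2 CPM in wild-type clones, so its mRNA was below wild type in C15 and S36 and above it in C12 and S04. CPM are counts scaled to a common library total with TMM factors. Gene counts do not show an edit of the sequence, and these values do not check the labels. All 9 T-lineage markers passed the filter on low counts and summed to 1686 to 2162 CPM in knockout clones and 1667 to 2041 CPM in wild-type clones. B-lineage markers summed to 8.07 to 15.8 CPM in knockout clones and 11.3 to 18.3 CPM in wild-type clones, with MS4A1 at 0. Myeloid markers reached 1.87 CPM in knockout clones and 0.708 CPM in wild-type clones, with LYZ at 0, and HBB, HBA1 and HBA2 were at 0 in every clone. Fibroblast and epithelial markers, nearly all of it COL1A1, summed to 6.19 to 14.1 CPM in knockout clones and 12.7 to 20.1 CPM in wild-type clones, with COL1A2, COL3A1 and EPCAM at 0. These counts are of bulk RNA, in which fewer cells that express a gene and less RNA per cell cannot be told apart.

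In the comparison of all 4 knockout with all 4 wild-type clones, 0 of the 9 tested members passed the threshold, an adjusted p of 0.05 in edgeR's quasi-likelihood test. Over all 14243 tested genes 0.316% passed, and 0 members also had an unadjusted p under 0.05, where 15.5% of all genes did. DESeq2 called 0 members, against 3.66% of all genes. The median log2 fold change of the 9 members was 0.020, beside 0.020 over all tested genes, and 5 lay above 0 and 4 below. The median size of the fold change was 0.080 log2 units, beside 0.27 over all genes. In none of the 9 did the knockout clones lie wholly outside the wild-type range, which was the case for 10.1% of all tested genes, 4.44% higher and 5.62% lower in knockout clones. BCL2A1 had too few counts to be tested.

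**Figure D1:**
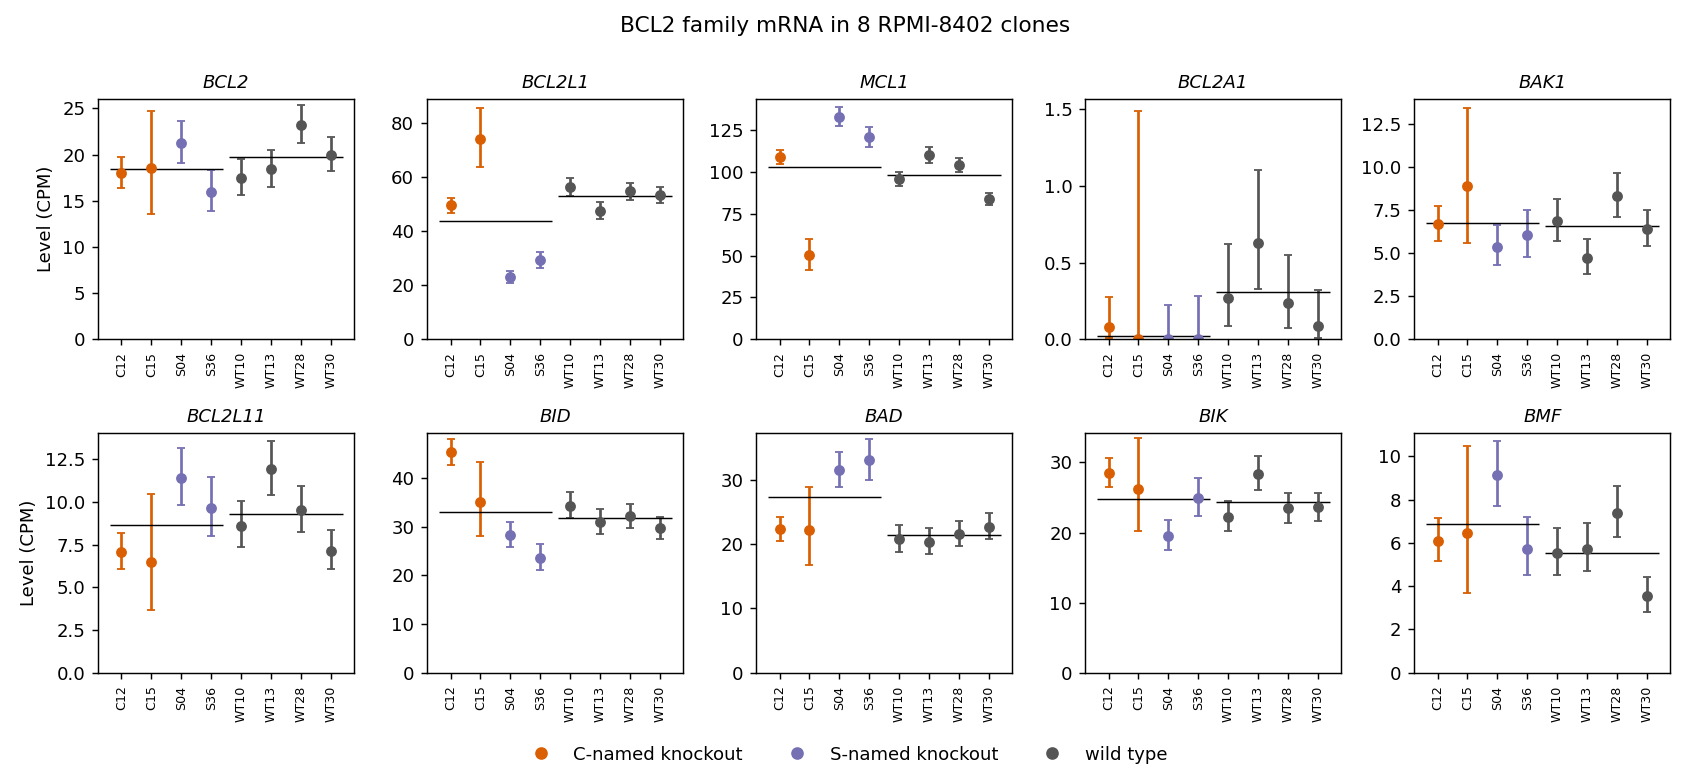
Level in CPM of the 10 genes in each clone, knockout clones left and wild-type clones right. Points are clones, vertical bars exact 95% Poisson intervals for counting error, horizontal lines group means; C15 has the widest bars, BCL2L1 is lowest in S04 (22.9) and S36 (29.3), and MCL1 is lowest in C15 (50.1).

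BCL2 (chromosome 18, 63123346 to 63320128), the founding survival gene of the family, was the steadiest member. It was at 18.0 CPM (C12), 18.6 (C15), 21.3 (S04) and 16.0 (S36), against 17.5 (WT10), 18.4 (WT13), 23.3 (WT28) and 19.98 (WT30). The groups overlapped, with means of 18.5 ± 2.18 CPM in knockout and 19.8 ± 2.53 CPM in wild-type clones (SD, n = 4 each). The log2 difference was -0.10 (SE 0.17, edgeR adjusted p = 0.815). The SD of its log2 CPM over the 8 clones, 0.17, was larger than that of 7.58% of tested genes.

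BCL2L1 (chromosome 20, 31664452 to 31723989), which encodes BCL-XL, varied most among the members. It was at 49.4 CPM (C12), 73.9 (C15), 22.9 (S04) and 29.3 (S36), against 56.2 (WT10), 47.5 (WT13), 54.6 (WT28) and 53.3 (WT30). C15 lay above every wild-type clone, C12 within their range and both S-named clones below it. Group means were 43.9 ± 23.0 CPM in knockout and 52.9 ± 3.77 CPM in wild-type clones (SD, n = 4 each), at -0.30 on the log2 scale (SE 0.30, edgeR adjusted p = 0.674). The C15 value rests on 183 counts, with an exact 95% Poisson interval of 63.6 to 85.4 CPM.

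MCL1 (chromosome 1, 150574551 to 150579738), a short-lived survival protein, had the highest CPM of the members. It was at 109 CPM (C12), 50.1 (C15), 133 (S04) and 121 (S36), against 95.6 (WT10), 110 (WT13), 104 (WT28) and 83.6 (WT30). C15 was low and both S-named clones were high, beyond the wild-type range on opposite sides. The log2 difference was 0.08 (SE 0.25, edgeR adjusted p = 0.913), between means of 103 ± 36.7 CPM in knockout and 98.3 ± 11.4 CPM in wild-type clones (SD, n = 4 each). In C15 it was counted 124 times, with an exact 95% Poisson interval of 41.6 to 59.7 CPM.

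BCL2A1 (chromosome 15, 79960889 to 79971446), best known as a survival gene induced by NF-kB, was hardly present. It had 2 counts in C12 and 0 in C15, S04 and S36, against 5 (WT10), 12 (WT13), 5 (WT28) and 2 (WT30). A count of 0 allows up to 3 counts, or 1.21 CPM in C15, which is above every wild-type level. The summed ratio of knockout to wild-type clones was 0.117, with an exact 95% counting interval of 0.0134 to 0.472, and with no filter on low counts the edgeR adjusted p was 0.236. The 12 counts of WT13 make up much of the wild-type sum.

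BAK1 (chromosome 6, 33572547 to 33580293), the pore-forming member, was at 6.68 CPM (C12), 8.88 (C15), 5.37 (S04) and 6.04 (S36). Wild-type clones had 6.86 CPM (WT10), 4.72 (WT13), 8.30 (WT28) and 6.39 (WT30). The groups overlapped throughout, and the log2 difference of -0.01 (SE 0.25, edgeR adjusted p = 0.994) turned to 0.045 when library totals alone were used for scaling. BAX, the other main pore former and no member here, was at 37.7 CPM in S36, 14.7 in S04, 20.8 in C12 and 22.6 in C15, against 16.5 to 23.0 CPM in wild-type clones.

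Among the BH3-only genes, BCL2L11 (chromosome 2, 111119378 to 111168447), whose product BIM binds all survival members, was at 7.06 CPM (C12), 6.46 (C15), 11.4 (S04) and 9.63 (S36). It was at 8.62 CPM (WT10), 11.9 (WT13), 9.53 (WT28) and 7.15 (WT30). Both C-named clones lay just below the lowest wild-type clone and both S-named clones within the wild-type range (log2 fold change over all knockout clones -0.08, SE 0.25, edgeR adjusted p = 0.914). BMF (chromosome 15, 40087890 to 40108892), a relative of BIM tethered by DYNLL2, spanned 5.73 to 9.12 CPM in knockout and 3.55 to 7.36 CPM in wild-type clones. The log2 difference was 0.31 (SE 0.27, edgeR adjusted p = 0.622).

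BAD (chromosome 11, 64269830 to 64284704), a BH3-only protein held inactive by survival kinases, came closest to a difference between all knockout and all wild-type clones. It was at 22.3 CPM (C12), 22.2 (C15), 31.5 (S04) and 33.1 (S36), against 20.9 (WT10), 20.4 (WT13), 21.6 (WT28) and 22.7 (WT30). Both S-named clones stood above all other clones, while both C-named clones lay within the wild-type range. The log2 difference was 0.36 (SE 0.18, edgeR adjusted p = 0.357) from means of 27.3 ± 5.84 CPM in knockout and 21.4 ± 1.01 CPM in wild-type clones (SD, n = 4 each).

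BID (chromosome 22, 17734138 to 17774770), which links death receptors to the mitochondrion once caspase-8 has cut it, was at 45.3 CPM (C12), 35.1 (C15), 28.3 (S04) and 23.6 (S36), against 34.4 (WT10), 31.1 (WT13), 32.2 (WT28) and 29.7 (WT30). Both C-named clones were above and both S-named clones below every wild-type clone, and the log2 fold change over all knockout clones was 0.06 (SE 0.20, edgeR adjusted p = 0.928). BIK (chromosome 22, 43110748 to 43129712), a BH3-only protein of the endoplasmic reticulum, ran from 19.6 CPM in S04 to 28.5 in C12 and from 22.2 to 28.4 CPM in wild-type clones. The log2 difference was 0.02 (SE 0.17, edgeR adjusted p = 0.974).

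The contrast of C-named with S-named knockout clones asks how far the knockout clones differ among themselves. The fit held 3 groups, wild-type clones adding to the estimate of the spread. Over all genes the median SD of log2 CPM was 0.18 in wild-type and 0.47 in knockout clones. SE and p of this contrast may thus understate the error between knockout clones. In it 0 of the 9 tested members passed, where 0.358% of all genes did, 32 of them higher and 19 lower in C-named clones, or 5 higher and 10 lower with library totals alone. With DESeq2 1 member passed, BCL2L1, against 4.57% of all genes. By edgeR 3 members had an unadjusted p under 0.05, BCL2L1, BID and BAD, against 17.1% of all tested genes. In 7 of the 9 the C-named and S-named clones did not overlap, against 37.2% of all genes. Exact Poisson intervals for counting error also stayed apart for BCL2L1 and MCL1. For BAK1, BCL2L11, BID, BAD and BIK some of these intervals overlapped, so counting error alone could close those gaps. For BIK they were 20.3 to 33.4 CPM in C15 and 22.4 to 27.8 CPM in S36. The share of all genes was not checked against counting error. The median size of the difference was 0.54 log2 units over the members and 0.37 over all genes.

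BCL2L1 averaged 61.7 CPM in C-named and 26.1 CPM in S-named clones, a log2 difference of 1.22 (SE 0.23, edgeR adjusted p = 0.0595). It thus missed the threshold by a small margin. The difference was 1.23 with an adjusted p of 4.89e-04 by DESeq2, and over 15 alternatives it ran from 0.91 to 1.502, with adjusted p of 2.70e-04 to 0.159 and 5 calls. Among these, 2.43% of all genes passed with no filter on low counts, 1.35% without S36 and 1.53% with at least 10 counts in every clone. BID differed by 0.65 (SE 0.20, edgeR adjusted p = 0.151) and BAD by -0.54 (SE 0.18, edgeR adjusted p = 0.182), BAD being lower in C-named clones. MCL1 differed by -0.64 (SE 0.30, edgeR adjusted p = 0.309) and BCL2L11 by -0.62 (SE 0.30, edgeR adjusted p = 0.334). Without C12 the MCL1 difference was -1.34 and passed (edgeR adjusted p = 0.0278, with 5.14% of genes called), with C15, the shallowest library, as the lone C-named clone in that fit. Without C15 it was -0.23 (edgeR adjusted p = 0.649). For BAK1, BIK, BMF and BCL2 the difference lay between -0.26 and 0.40, each with an edgeR adjusted p of at least 0.504.

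In a fit limited to the S-named clones and wild type, BCL2L1 fell and BAD rose. These are 2 of the 9 tested members, and as 14.5% of all genes passed in that fit, 7.17% higher and 7.36% lower, the count is close to the background. BCL2L1 fell by 1.04 on the log2 scale (SE 0.16, edgeR adjusted p = 0.00635) and BAD rose by 0.58 (SE 0.13, edgeR adjusted p = 0.0262). MCL1 was at 0.35 (SE 0.14, edgeR adjusted p = 0.118) and BID at -0.31 (SE 0.15, edgeR adjusted p = 0.198). The S-named clones lay outside the wild-type range in 4 tested members, BCL2L1, MCL1, BID and BAD, where 40.0% of all tested genes did. In a fit limited to the C-named clones and wild type 0 members passed, with 0.0395% of genes called by edgeR, 0.0264% higher and 0.0132% lower, and 1557 genes at an unadjusted p under 0.05. There BCL2L1 was at 0.17, BID at 0.35 and BCL2L11 at -0.45 on the log2 scale. These fits and that of all knockout clones share the same 4 wild-type clones. In the fits of single letters SE and p rest in part on the smaller spread of wild-type clones, and may understate the error of knockout clones.

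**Figure D2:**
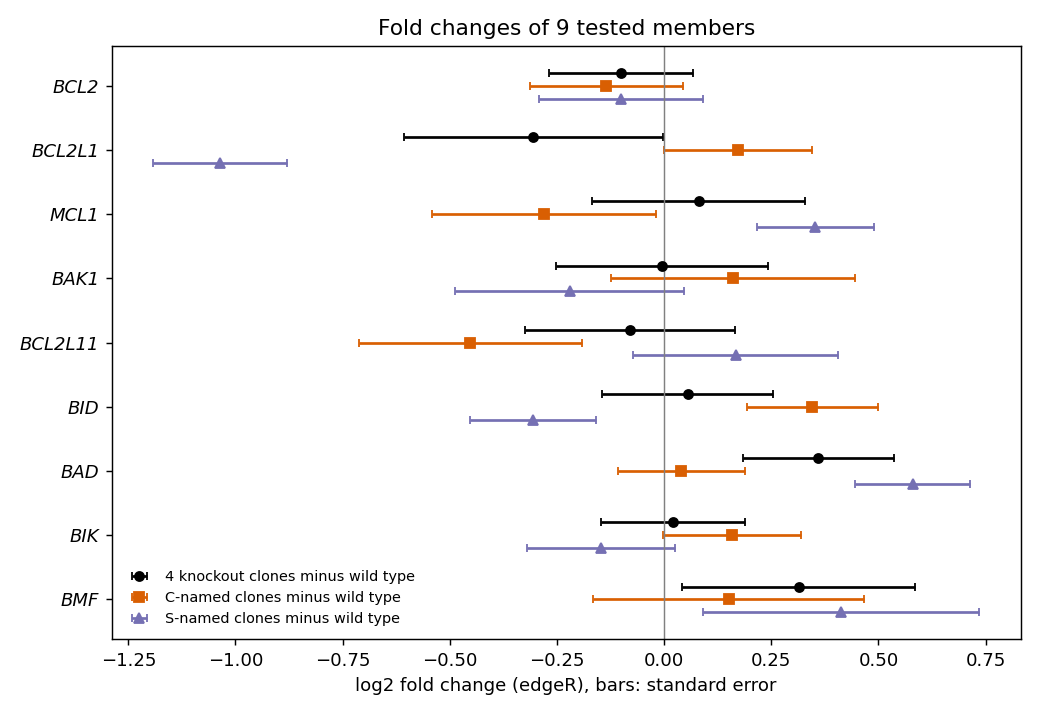
log2 fold change of the 9 tested members for all 4 knockout clones (black), C-named clones (orange) and S-named clones (purple), each against the same 4 wild-type clones; bars are standard errors from edgeR. The S-named estimate for BCL2L1 (-1.04) stands apart from the C-named one (0.17), and for BAD the S-named estimate is 0.58.

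Scaled by the length of the principal transcript, which lets levels of different genes be set side by side, the members kept a similar order in both groups. MCL1 stood at 26.2 ± 9.32 CPM per kb in knockout and 25.01 ± 2.91 in wild-type clones, and BIK at 26.0 ± 3.98 in knockout and 25.6 ± 2.85 in wild-type clones (SD, n = 4 each). BAD stood at 26.2 ± 5.60 CPM per kb in knockout and 20.5 ± 0.972 in wild-type clones, and BCL2L1 at 16.9 ± 8.86 in knockout and 20.4 ± 1.45 in wild-type clones. These 4 led in both groups, and in wild-type clones MCL1 and BIK did not differ beyond their spread, nor did BAD and BCL2L1. BID followed at 13.3 ± 3.78 CPM per kb in knockout and 12.8 ± 0.792 in wild-type clones. BCL2L11, BCL2, BAK1, BMF and BCL2A1 made up the low end, at 5.68, 3.46, 3.16, 2.59 and 0.0187 CPM per kb in knockout and 6.11, 3.71, 3.08, 2.09 and 0.295 CPM per kb in wild-type clones. BCL2 mRNA was thus a minor part of the survival transcripts in these cells. The order rests on transcript length: with the median length of coding transcripts BCL2L11 came to 1.86 and BMF to 7.54 CPM per kb in wild-type clones.

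Of the summed CPM per kb of the 4 survival genes, MCL1 and BCL2L1 held over 90% in every clone, but their parts differed widely between knockout clones. The MCL1 share was 55.1% (C12), 28.5% (C15), 72.5% (S04) and 68.2% (S36), against 46.6% to 55.6% in wild-type clones. The BCL2L1 share was 38.0% (C12), 63.7% (C15), 18.9% (S04) and 25.1% (S36), against 36.4% to 45.0% in wild-type clones. The ratio of MCL1 to BCL2L1 in CPM per kb was therefore 1.45 (C12), 0.447 (C15), 3.83 (S04) and 2.72 (S36), against 1.04 to 1.53 in wild-type clones. C12 fell within the wild-type range, C15 below it and both S-named clones above it.

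**Figure D3:**
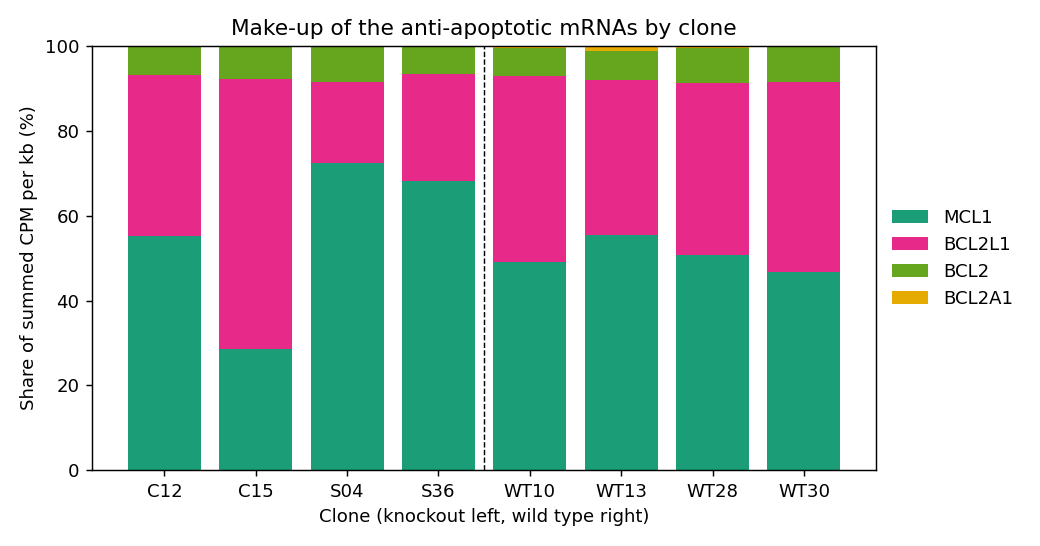
Share of each survival gene in their summed CPM per kb, in percent, by clone, knockout clones left of the dashed line and wild-type clones right of it. MCL1 (green) takes 28.5% in C15 and 72.5% in S04, against 46.6% to 55.6% in wild-type clones, and BCL2A1 (yellow) is barely visible.

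The sum of the survival genes was 44.7 to 50.2 CPM per kb in knockout and 45.6 to 52.1 in wild-type clones, so the sums overlapped although their make-up differed. The sum of the BH3-only members was 69.6 to 76.4 CPM per kb in knockout and 64.5 to 71.8 in wild-type clones. The ratio of survival to BH3-only sums was 0.657 (C12), 0.642 (C15), 0.638 (S04) and 0.592 (S36), against 0.763 (WT10), 0.702 (WT13), 0.774 (WT28) and 0.708 (WT30). Every knockout clone lay below every wild-type clone, also with the other transcript length (0.530 to 0.581 in knockout, 0.637 to 0.681 in wild-type clones) and in CPM without lengths (1.48 to 1.77 in knockout, 1.81 to 1.93 in wild-type clones). The split holds for the member genes alone. PMAIP1, BBC3 and HRK, BH3-only genes outside the members, are not in the sum, and their means were lower in knockout clones. PMAIP1 averaged 70.3 CPM in knockout and 86.2 in wild-type clones, BBC3 6.28 and 9.95, and HRK 0.909 and 2.48. In every clone PMAIP1 had more CPM than any BH3-only member, at 54.4 to 91.4 in knockout and 77.1 to 109 in wild-type clones. The ratio with these genes included was not computed. The split is therefore not shown for survival against BH3-only genes as a whole. The ratio shown was set up after the values were seen and carries no test, and mRNA ratios say nothing of protein.

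Some members lie on chromosomes whose genes shifted together in knockout clones. On chromosome 20, the 65 tested genes within 5 Mb of the BCL2L1 start had median log2 differences from the wild-type mean of -0.31 (C12), -0.0042 (C15), -0.30 (S04) and -0.17 (S36), while BCL2L1 was at -0.095 (C12), 0.48 (C15), -1.20 (S04) and -0.85 (S36). In S04 and S36 only 4 and 11 of these neighbours lay lower than BCL2L1. The 28 neighbours of BCL2L11 on chromosome 2 were at -0.29 (C12), -0.46 (C15), -0.47 (S04) and -0.29 (S36), and BCL2L11 itself at -0.37 (C12), -0.49 (C15), 0.32 (S04) and 0.073 (S36). It thus followed its neighbours in the C-named clones and lay above them in the S-named clones. The 129 neighbours of MCL1 were at 0.049 (C12), -0.089 (C15), 0.093 (S04) and 0.39 (S36), and MCL1 itself at 0.15 (C12), -0.96 (C15), 0.44 (S04) and 0.30 (S36). The neighbours of BAD stayed within 0.029 of 0 in knockout clones, where BAD was at 0.56 in S04 and 0.63 in S36. Against the median of its own chromosome the knockout fold change was -0.11 for BCL2L1 and 0.23 for BCL2L11. The part of these shifts in the members' levels was not tested.

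**Figure D4:**
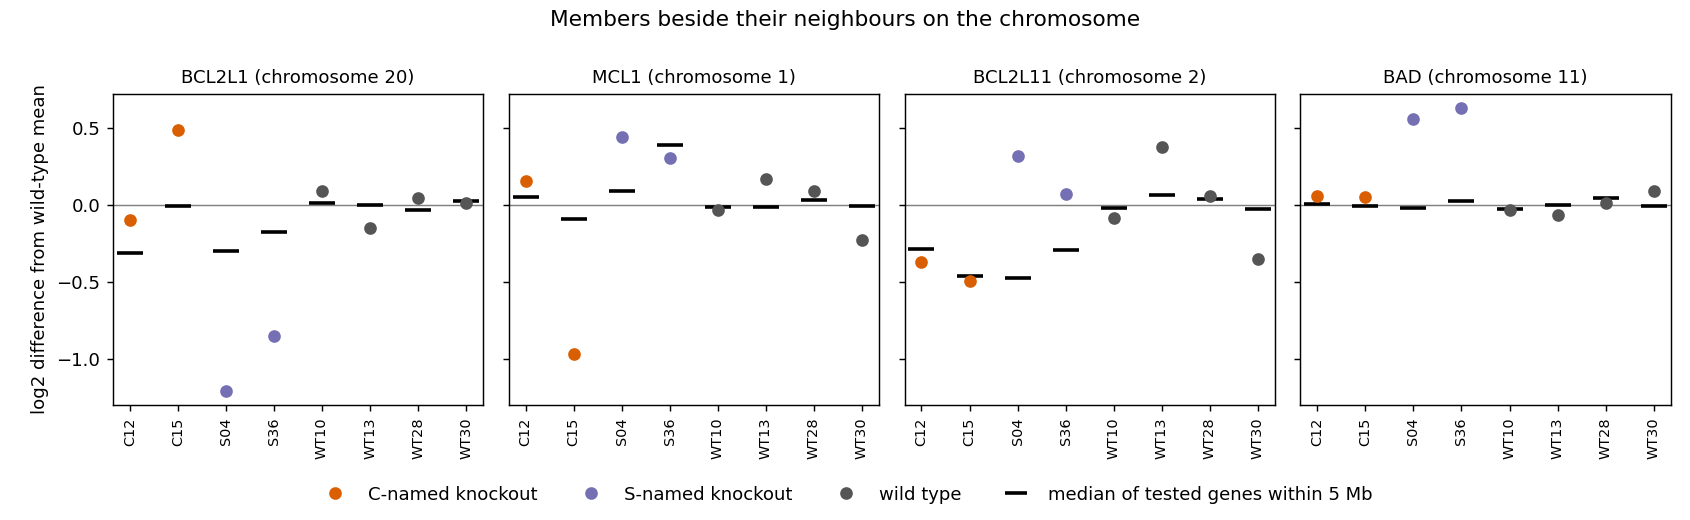
log2 difference from the wild-type mean for BCL2L1, MCL1, BCL2L11 and BAD in each clone (points) beside the median of tested genes within 5 Mb on the same chromosome (black bars), knockout clones left and wild-type clones right. BCL2L1 lies far below its neighbours in S04 (-1.20 against -0.30) and BAD above them in both S-named clones.

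Reads of some members may include those of other genes, since the labels do not say whether counting used strand. Exons of BAD overlap GPR137 on the other strand, which was at 9.48 CPM in S04 and 16.7 in S36, against 11.2 to 13.9 CPM in wild-type clones. It was thus below wild type in S04 and above it in S36, and its part in the BAD counts was not tested. MIR4435-2HG, opposite BCL2L11, was at 12.1 to 16.9 CPM in knockout and 14.8 to 19.0 CPM in wild-type clones. ABALON, opposite BCL2L1, and BMF-AS1 had 0 counts in every clone.

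The knockout clones were less alike than the wild-type clones in most genes, and the members shared this only in part. The SD of log2 CPM was larger among knockout clones in 6 of 9 tested members, against 88.9% of all tested genes. For BCL2L1 it was 0.76 in knockout and 0.11 in wild-type clones, and for MCL1 0.64 in knockout and 0.17 in wild-type clones. For BID it was 0.40 in knockout and 0.089 in wild-type clones, and for BAD 0.31 in knockout and 0.067 in wild-type clones. The medians over all genes were 0.47 in knockout and 0.18 in wild-type clones. BCL2, BAK1 and BMF varied less in knockout clones, at 0.94, 0.92 and 0.69 times the wild-type SD. In thinned libraries, a setting added after the data were seen, BCL2 (1.27) and BAK1 (1.07) turned to a larger SD in knockout clones, and BCL2L11 (0.82) and BIK (0.88) to a smaller one. The knockout SD was larger there in 6 of 9 members, against 77.2% of all genes. Without C15, a setting likewise added, the knockout SD was larger in 6 of 9 members, against 80.1% of all genes. BCL2 was then at 1.15 times the wild-type SD. The MCL1 spread in knockout clones fell below that in wild-type clones, at 0.84 times it, whereas that of BCL2L1 was still 5.37 times as large.

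The genes whose centred log2 CPM ran most like that of BCL2L1 over the 8 clones were RECQL4, NAT10 and SIMC1, at root mean square differences of 0.11, 0.11 and 0.12, where the median over all genes was 0.65. For MCL1 they were SH2B3 (0.07), NXT1 (0.10) and PEX3 (0.11), beside a median of 0.55. For BMF they were RPL6P1, ENSG00000248774 and BMAL1, at 0.10 to 0.19. RPL6P1 is near the floor, at 0.710 to 1.63 CPM, with 1.21 CPM or 3 counts in C15. RECQL4, for example, was at 148 CPM (C12), 238 (C15), 69.7 (S04) and 81.0 (S36), against 138 to 158 CPM in wild-type clones. All these genes were picked as the nearest of all tested genes, so differences below the median follow from the choice. They are descriptions over clones that share the depth and spread given above.

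Other genes of the death pathway were taken from lists chosen for their roles. In the comparison of all knockout with wild-type clones 0 of 48 tested genes in the 6 lists passed by edgeR, where 0.316% of all genes did. An unadjusted p under 0.05 was found for 7 of them (14.6%), beside 15.5% of all genes. Of 13 other BCL2 family genes 8 were tested, with a median log2 fold change of -0.17. HRK, a BH3-only gene first described in neurons, was at 0.579 CPM (C12), 2.02 (C15), 0.121 (S04) and 0.917 (S36), against 2.09 to 2.98 CPM in wild-type clones. The log2 difference was -1.88 (SE 0.55, edgeR adjusted p = 0.165). HRK was lower in every knockout than in every wild-type clone, where 10.1% of all tested genes did not overlap in either direction. DESeq2 called HRK (adjusted p = 0.0402, with 3.66% of genes called), as did edgeR with no filter on low counts (adjusted p = 0.0195, with 1.85% of genes called). Its levels are near the floor, as 3 counts are 1.21 CPM in C15 and 0.181 CPM in S04. HRK was not tested in the setting with at least 10 counts in every clone, and no counting interval was computed for it. BBC3, which encodes the p53 target PUMA, was at -0.64 (SE 0.24, edgeR adjusted p = 0.242), with 5.25 to 8.37 CPM in knockout and 7.14 to 11.4 CPM in wild-type clones. BCL2L12 was at 0.27 (edgeR adjusted p = 0.346), and BNIP3L, PMAIP1 and BAX were also tested.

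Among genes of mitochondrial release and the caspases, 8 of 11 were tested, 4 of them above 0 and 4 below, with a median of 0.00091. VDAC3, a pore of the outer membrane, was at 209.6 CPM (C12), 196 (C15), 186 (S04) and 152 (S36), against 208 to 246 CPM in wild-type clones (log2 fold change -0.32, SE 0.14, edgeR adjusted p = 0.312). Its relative VDAC1 was at 0.18 (SE 0.13, edgeR adjusted p = 0.550). APAF1, the scaffold on which cytochrome c activates caspase-9, was at 0.29 (SE 0.19, edgeR adjusted p = 0.490). In the fit limited to S-named clones 0 of these 8 genes passed by edgeR, where 14.5% of all genes did. Of the 8, 1 had an unadjusted p under 0.05, VDAC3 (edgeR adjusted p = 0.0505), as had 31.4% of all genes.

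Of 7 inhibitors of apoptosis 5 were tested, with a median of -0.26 and 1 above 0. BIRC3 was at -0.47, BIRC5, the mitotic survivin gene, at -0.33 and BIRC6 at -0.26, with edgeR adjusted p of 0.358 to 0.458. Of 12 death receptor genes 9 were tested, with a median of 0.077. CASP10, an initiator caspase on chromosome 2, was at 17.4 to 22.2 CPM in knockout and 23.8 to 27.2 CPM in wild-type clones, without overlap (log2 fold change -0.44, SE 0.15, edgeR adjusted p = 0.206), and the median of its chromosome was -0.31. FADD, the adaptor of death receptors, was at 0.347 CPM (C12), 1.21 (C15), 1.45 (S04) and 3.13 (S36), against 0.532 to 0.844 CPM in wild-type clones (edgeR adjusted p = 0.373), and TNFRSF10B at 0.90 on the log2 scale (edgeR adjusted p = 0.371).

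Binding partners and turnover factors, 9 of 9 tested, had a median of 0.072. TPT1, a partner of MCL1, was at 941 to 1376 CPM in knockout and 1553 to 1794 CPM in wild-type clones (log2 fold change -0.48, SE 0.15, edgeR adjusted p = 0.189). BAG1, a chaperone partner of BCL2, was at 81.7 to 110 CPM in knockout and 67.7 to 74.2 CPM in wild-type clones (0.40, SE 0.14, edgeR adjusted p = 0.206), and DYNLL2, which tethers BMF, at 0.26 (edgeR adjusted p = 0.528). Transcription factors known upstream of the family, 9 of 10 tested, had a median of 0.25, with MYB at 0.31 (edgeR adjusted p = 0.311), FOXO3 at -0.27 (0.479) and STAT5B at 0.25 (0.481). In the fit limited to S-named clones TPT1 fell by 0.61 and FOXO3 by 0.55 (edgeR adjusted p = 0.0279 and 0.0295), and HRK, CASP10 and FBXW7 also fell while FAS, FADD and STAT5A also rose. With BCL2L1 and BAD these make 10 of the 58 genes of the 7 lists tested in that fit (17.2%), close to the 14.5% of all genes.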

How the data were processed

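RNA of 8 clones was sequenced, and the authors deposited raw counts per gene symbol, which were used as they stand. The tools named per the submitters' processing notes are TopHat2, Subread, SAMtools and FastQC, with hg38 as build. Their versions, the annotation and the strand setting were not stated. Genes were filtered with filterByExpr (14243 left), scaled by TMM and tested two-sided by quasi-likelihood in edgeR 4.0.16 under R 4.3.3. Adjusted p followed Benjamini and Hochberg across every gene tested, and calls were made at 0.05. log2 CPM used a prior count of 2. Positions and lengths came from GENCODE release 29 (GRCh38), and lengths are medians of APPRIS principal transcripts. DESeq2 1.42.0, limma 3.58.1, other filters and scalings, thinning, single letters and leaving out each clone were alternatives. The test was tried on counts simulated with the same spread per gene in every group, with changes planted only in well-counted genes. In the data 88.9% of genes varied more among knockout clones, so the shares below may not hold for them. Between knockout and wild-type clones it recovered 43% of planted 2-fold and 89% of planted 4-fold changes. Between C-named and S-named clones it recovered 14% and 65%. False calls made up 2.94% of the calls in the first contrast and 10.2% in the other. Changes of 2-fold could thus be missed in either contrast. Within a group the counts of 2 clones differed by a chi-square per degree of freedom of at least 13.8, so none was taken for a copy.

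Members and lists were chosen with earlier results of these data known. All members were named, and up to 3 genes per other list by smallest p. BAX, PMAIP1, FBXW7, FAS and STAT5A were named after their values were seen. The labels name clones but no cultures or dates, so each p rests on clone-to-clone spread only, which may be technical in part. Some genes of the lists are not reported here. Intervals and floors (3 counts) cover counting error only.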

Additional observations from a re-analysis of the deposited data

Results flagged for a closer look

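In 54 groups of 4 clones, for the 9 tested members and 18 other named genes, 1 clone was set apart from the rest of its group. About 2.7 such cases would arise by chance. It was CASP10 in C15, at 4.48 on the log2 CPM scale, the knockout clone nearest to wild type in this gene. C15 is the shallowest library. None of the members held such a clone.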

How the results depend on the processing

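No paired analysis was possible because the labels give clone names and no replicate numbers shared between groups. The depth of C15 limits its low members: BCL2L11 and BMF had 16 counts there and BAK1 22. Lone clones left by a removal are assumed to vary like the other groups.

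Between knockout and wild-type clones 45 genes passed, and 29 with library totals alone, 581 with no low-count filter, 27 with at least 10 counts in every clone, 521 by DESeq2, 94 by limma-voom, 1 in thinned libraries, 6 with C-named and 2211 with S-named clones only. The count ran from 3 to 456 when single clones were left out, lowest without WT10, WT13 or WT30 and highest without C12. Between C-named and S-named clones it was 51, and 14 with DESeq2 size factors, 15 with library totals alone, where the median over all genes moved from -0.048 to -0.19, 762 with no low-count filter, 142 with at least 10 counts in every clone, 651 by DESeq2, 89 by limma-voom and 24 in thinned libraries. It ran from 0 to 749 without single clones, 0 by edgeR without any 1 wild-type clone, with 1971 to 2095 genes at an unadjusted p under 0.05. The causes were not tested.

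Folds of knockout against wild-type clones that did not pass turned sign in some alternatives. With C-named clones only they were 0.17 for BCL2L1, -0.28 for MCL1, 0.16 for BAK1 and -0.47 for FADD. With S-named clones only they were 0.17 for BCL2L11, -0.31 for BID and -0.15 for BIK. BAK1 was at 0.045 with library totals alone and 0.30 in thinned libraries, and BIK at -0.028 with no low-count filter. Without single clones MCL1 ran from -0.057 to 0.29, BAK1 from -0.14 to 0.13, BCL2L11 from -0.24 to 0.051, BID from -0.16 to 0.19 and BIK from -0.066 to 0.12. Between C-named and S-named clones BCL2 was at 0.17 in thinned libraries and ran from -0.22 to 0.19 without single clones, and BMF from -0.55 to 0.12. BCL2, BAD and BMF kept the sign of their knockout fold in all 17 alternatives, and in the letter contrast BCL2L1, MCL1, BAK1, BCL2L11, BID, BAD and BIK did in all 15. BCL2L1 passed there with no low-count filter (edgeR adjusted p = 2.70e-04), at least 10 counts in every clone (0.0475), DESeq2 (4.89e-04), without C12 (0.0185) and without S36 (0.0492). HRK also passed between knockout and wild-type clones with no low-count filter (edgeR adjusted p = 0.0195).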

Other observations

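Some genes of the lists varied among knockout clones as widely as any member, and they were picked here after their values were seen. BNIP3, a mitophagy receptor, was at 35.3 CPM (C12), 22.6 (C15), 84.7 (S04) and 1.22 (S36), against 20.4 to 74.0 CPM in wild-type clones. CASP8, the caspase that cuts BID, was at 12.2 CPM (C12), 2.42 (C15), 32.4 (S04) and 6.42 (S36), against 9.01 to 15.01 CPM in wild-type clones. CASP9, the initiator caspase of the mitochondrial route, was at 3.97 CPM in C12, 4.59 in S04 and 0.688 in S36 and had no count in C15, where 3 counts are 1.21 CPM, against 2.97 to 5.47 CPM in wild-type clones. BCL2L14, NAIP and FASLG had 0 counts in every clone.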
